A study of Mus musculus with 6 samples.

Results

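The enzymes that conjugate drugs, hormones and bile pigments were examined here in fetal mouse livers with and without a normal gene for HNF4 alpha, the nuclear receptor that controls many hepatocyte genes. The genes belong to the UDP-glucuronosyltransferase (UGT), sulfotransferase (SULT) and glutathione S-transferase (GST) families. Members were taken by name: every probe set whose single gene symbol in the platform annotation begins with Ugt, Sult or Gst and then a number or class letter, with Gstz1 left out. This gave 55 of 45037 probe sets, or 43 of 18193 genes, of which 11 were UGT, 13 SULT and 19 GST genes. Gstcd was not counted, since its name carries no class letter.

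Each array held total RNA of 1 fetal liver sample at E18.5. The 3 control livers carried HNF4LoxP/+AlfpCre (spelled Hnf4LoxP/+AlfpCre for Control_8), with 1 flanked allele, and the 3 null livers carried HNF4LoxP/LoxP AlfpCre. Both groups therefore carry the AlfpCre transgene, whose albumin and alpha-fetoprotein elements direct Cre recombinase to the hepatocyte lineage, and both have flanked DNA. Whole livers also hold blood-forming, endothelial and mesenchymal cells, and in such samples fewer cells of a type and less RNA per cell cannot be told apart. Nothing in the labels tells whether livers shared a litter, and p values therefore reflect only how much these 6 arrays vary, which may be partly technical. Control values are given below in the order Control_8, Control_1192 and Control_1193, and null values in the order Null_61, Null_1191 and Null_1195.

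UGT enzymes sit in the membrane of the endoplasmic reticulum and transfer glucuronic acid from UDP-glucuronic acid to bilirubin, steroids and phenols. SULT enzymes work in the cytosol and transfer a sulfonate group from the donor PAPS to phenols, thyroid hormones, estrogens, catecholamines and bile acids. GST enzymes, mostly cytosolic, join glutathione to electrophiles. Hepatocytes are a main site of all these reactions, and the products leave through transporters into bile or blood.

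The arrays were checked before the members. Array medians lay between 91.8 and 99.5. Hnf4a fell in 2 of its 4 probe sets (adjusted p = 0.0434 and 0.0488, limma), and the 4 kept 62.2% to 73.7% of the control mean; the files do not place these probe sets relative to the flanked DNA. Control_8 and Null_61 carry short title numbers, the others 4-digit numbers, and the labels do not say why. These 2 arrays also stood apart in a ribosomal RNA control probe set, at 42.1 and 33.5 against 449 to 616 in the other 4. By Xist and Y-linked probe sets, Control_8, Null_1191 and Null_1195 came from female embryos and the others from male. Hepatocyte markers were bright on all arrays, with 4 of 6 lower in the nulls, beside 7.85% of all genes, and Alb and Afp not called. Their summed intensity was 65611 to 66529 in the controls and 38667 to 41947 in the nulls. Alb and Afp, with group means of 10532 to 11969, lay near the highest values of the arrays, 11302 to 12608. Whether a fall is hidden at that level was not tested.

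Conjugating enzymes were lower in the null livers in part of each family, and none was called higher. At an adjusted p under 0.05 (limma, Benjamini-Hochberg over all probe sets), 4 of 11 UGT genes, 4 of 13 SULT genes and 9 of 19 GST genes fell, where each gene stands by its probe set with the highest mean log2 value. That is 17 of 43 genes (39.5%), beside 7.85% of all genes called lower and 1.56% called higher. With limma, 0 members were called higher. At an unadjusted p under 0.05, 1 member was higher and 24 were lower, beside 9.1% and 15.2% of all genes. By probe sets, 4 of 14 UGT, 5 of 15 SULT and 14 of 26 GST probe sets fell, beside 5.55% of all probe sets lower and 1.46% higher. Median log2 changes, null minus control, were -0.40 for UGT genes, -0.03 for SULT genes and -0.67 for GST genes, and 0.01 over all genes.

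All 3 nulls lay below all 3 controls in 21 of the 43 genes, beside 17.9% of all genes, and above them in 0, beside 13.2%. Of the 17 falls, 13 were at least 2-fold on the log2(intensity + 32) scale. The background for that criterion was 3.75% of all genes. Dim genes change less on that scale than they would without the added 32. Folds come from the same scale and are printed only where both group means exceed 99.5, the highest of the array medians.

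**Figure D1:**
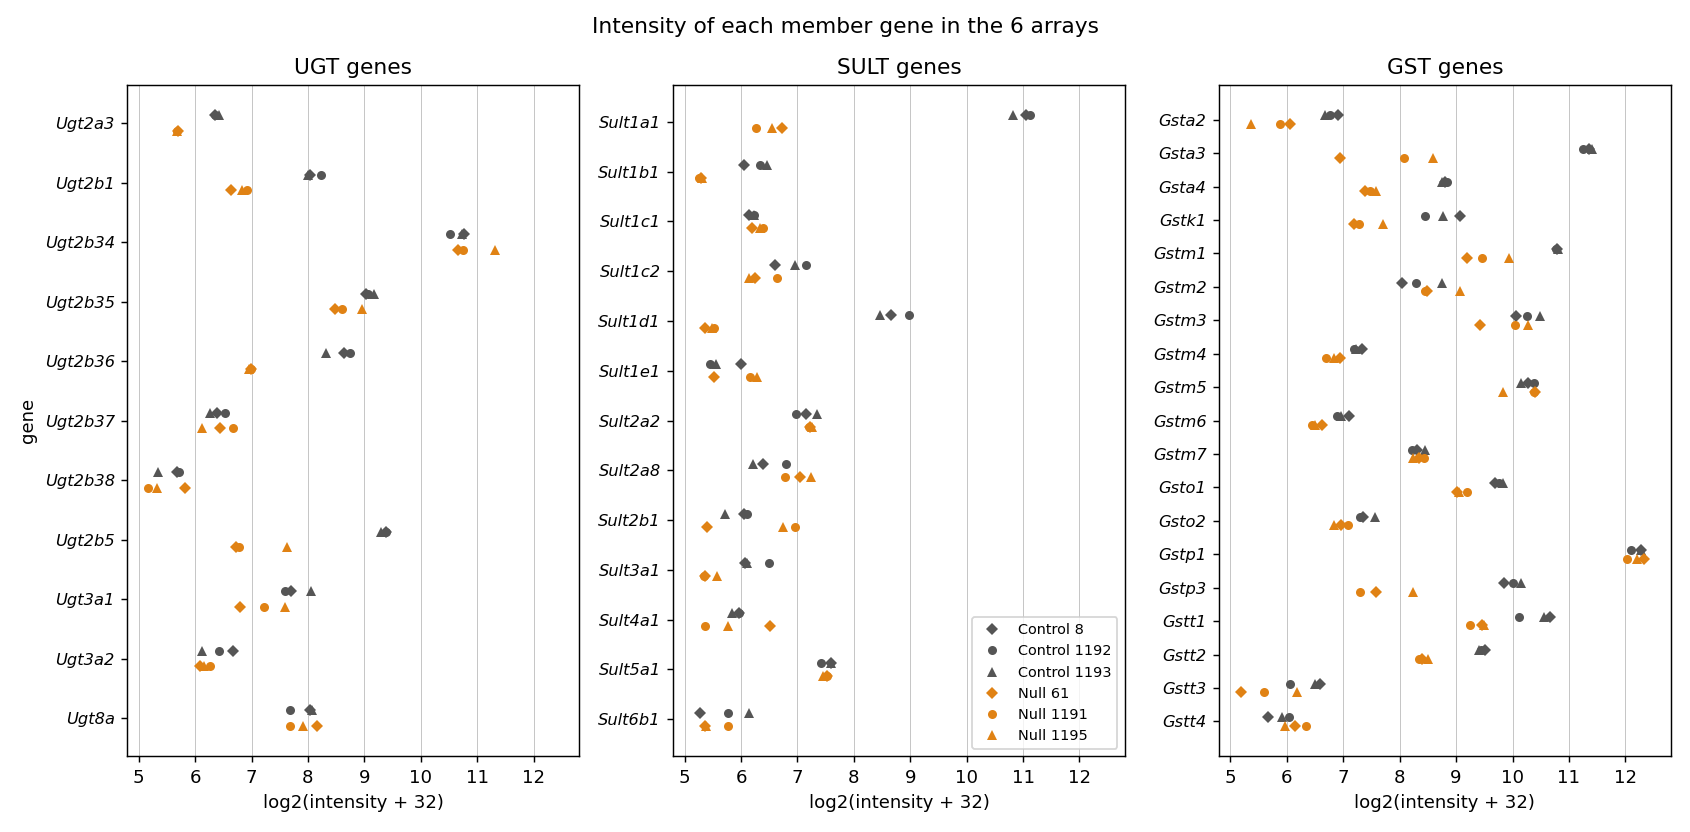
Intensity of the 43 member genes in each array, as log2(intensity + 32), with 1 panel per family, controls in grey, nulls in orange and a symbol for each array. Sult1a1, Sult1d1, Gsta3, Ugt2b5 and Gstp3 show wide gaps between the groups, while Gstp1 and Ugt2b34 overlap.

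Among the UGT genes, 4 fell, and all of them lie in the UGT2 group, whose enzymes conjugate steroids and phenols. The largest change was that of Ugt2b5. It read 637, 639 and 595 in controls against 73.9, 77.2 and 167 in nulls, a 4.96-fold fall (log2 change -2.31, standard error 0.23, adjusted p = 0.000329). All 3 nulls lay far below the controls, and Null_1195 kept more than the other two. Ugt2b36 read 365, 396 and 288 in controls against 95.2, 94.5 and 91.8 in nulls, so the nulls lay within a few units of each other (log2 change -1.59, standard error 0.14, adjusted p = 0.000142). Ugt2b1 read 231, 269.9 and 224 in controls against 67.7, 89.6 and 82.3 in nulls (log2 change -1.29, standard error 0.13, adjusted p = 0.000392). Neither Ugt2b36 nor Ugt2b1 overlapped between groups. Ugt2a3 was dim in both, at 49.6, 49.7 and 53.7 in controls against 19.7, 19.5 and 19.2 in nulls (log2 change -0.69, adjusted p = 0.0126). Leaving out Control_1192 or Control_1193 raised its adjusted p to 0.0575 or 0.0654. In all 4 of these genes every null lay below every control.

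Ugt2b34, a bright UGT2B gene, did not pass the test in either direction. Its probe set 1427961_s_at read 1703, 1431 and 1667 in controls against 1589.8, 1693 and 2513 in nulls (log2 change 0.24, 95% confidence interval -0.15 to 0.63). Null_1195 was high, and the other two nulls lay inside the control range. The second probe set, 1427960_at, read 952, 719.7 and 910.5 in controls against 1069, 851 and 1096 in nulls (log2 change 0.22, 95% confidence interval -0.12 to 0.55). A 2-fold fall lies outside both intervals.

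Ugt2b35 read 489, 502 and 544 in controls against 326, 357 and 465 in nulls, with no overlap but a log2 change of only -0.40 (adjusted p = 0.148). It was called without Null_1195 (adjusted p = 0.0485), the null with the highest value. Ugt3a1, whose human counterpart uses N-acetylglucosamine as the sugar, read 177, 160.2 and 234 in controls against 78.6, 118 and 161 in nulls (log2 change -0.58, adjusted p = 0.160). Null_1195 lay just above the lowest control. Its second probe set, 1424493_s_at, was dim, at -7.43, 1.18 and 19.1 in controls against 39.7, 18.4 and 14.7 in nulls (log2 change 0.55, adjusted p = 0.250), so the probe sets differ in sign and neither was called. Ugt8a makes galactosylceramide, the lipid of myelin, and does not conjugate drugs. It read 229, 173 and 238 in controls against 254, 174 and 209 in nulls, with overlapping groups and a log2 change of -0.01 (95% confidence interval -0.38 to 0.37). Its dim probe set 1419063_at read 15.0, 24.4 and -2.40 in controls against 25.0, 25.6 and 17.5 in nulls (log2 change 0.31, adjusted p = 0.470).

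The UGT1A enzymes, which include the one that conjugates bilirubin, share their last exons, and the annotation gives 3 probe sets to 8 of these genes together. Those probe sets name no single gene and are not members. They read 4491, 5068 and 4842 in controls against 547, 310.0 and 424 in nulls for 1426260_a_at, a 10.8-fold fall, and fell 11.5-fold in both 1424783_a_at and 1426261_s_at (adjusted p from 6.45e-06 to 1.31e-05). Their log2 changes ran from -3.43 to -3.52, and the lowest among UGT genes with a probe set of their own was -2.31 (Ugt2b5); the difference was not tested. Which of the 8 genes carried the shared signal cannot be told apart.

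UGT2 genes lie beside each other in the genome, and the start regions of some are close copies. In RefSeq windows of 300 bases, from 250 before to 50 after the start (build GRCm38.p6), Ugt2b5 and Ugt2b38 matched at 84.2% of aligned columns, Ugt2b37 and Ugt2b38 at 86.9%, and Ugt2b5 and Ugt2b37 at 76.2%. Ugt2b34, not called, matched the other UGT2B windows at 46.7% to 51.4%, and Ugt2b1, which fell, at 48.3% to 50.6%. Windows of SULT1 genes with 1 window each, aligned the same way, matched at 44.3% to 50.8%. Those are also genes of 1 class. Unrelated windows were not aligned, so whether such values mark any likeness was not tested. The windows of Ugt2b5 (chr5:87140291-87140590, minus strand) and Ugt2b38 (chr5:87424154-87424453, minus strand) are shown because Ugt2b5 fell while Ugt2b38 read 24.5 at most on any array, far below the array medians. Capitals mark bases that differ between them or have no partner in the alignment.
Ugt2b5: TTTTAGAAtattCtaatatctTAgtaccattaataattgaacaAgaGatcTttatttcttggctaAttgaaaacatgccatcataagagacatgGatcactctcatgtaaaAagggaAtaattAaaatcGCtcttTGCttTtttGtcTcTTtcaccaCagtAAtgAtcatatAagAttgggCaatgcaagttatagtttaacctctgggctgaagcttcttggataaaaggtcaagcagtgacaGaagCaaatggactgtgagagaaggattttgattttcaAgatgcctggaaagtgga
Ugt2b38: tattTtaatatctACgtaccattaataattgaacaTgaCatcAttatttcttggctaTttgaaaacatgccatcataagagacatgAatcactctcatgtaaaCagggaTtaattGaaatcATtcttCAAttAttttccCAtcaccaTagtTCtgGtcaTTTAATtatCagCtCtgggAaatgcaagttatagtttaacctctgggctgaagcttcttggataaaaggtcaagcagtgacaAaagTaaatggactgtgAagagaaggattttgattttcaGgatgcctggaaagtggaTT
In each window 39 bases differ from the other or have no partner. Whether the probe sets of such close copies take up each other's RNA was not tested.

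Windows of all members were also searched, on both strands, for CAAAGTCCA, a core of HNF4 sites, and for GTTAAT, a half-site of HNF1, another factor of the hepatocyte. The window of Ugt2a3 (chr5:87337146-87337445, minus strand) is shown because it was the one member window with a pair of GTTAAT matches, in capitals, at 54 and 47 bases before the start.
Ugt2a3: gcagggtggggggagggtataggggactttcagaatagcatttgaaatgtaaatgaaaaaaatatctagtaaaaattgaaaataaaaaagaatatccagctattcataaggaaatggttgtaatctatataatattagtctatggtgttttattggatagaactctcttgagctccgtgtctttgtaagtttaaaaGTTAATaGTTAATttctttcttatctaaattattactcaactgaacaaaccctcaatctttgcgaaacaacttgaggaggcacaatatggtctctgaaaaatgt
None of the UGT windows held CAAAGTCCA, and among them Ugt3a1 was the other with GTTAAT, at 123 bases before its start on the opposite strand. No match says only that these letters are not in the window.

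**Figure D2:**
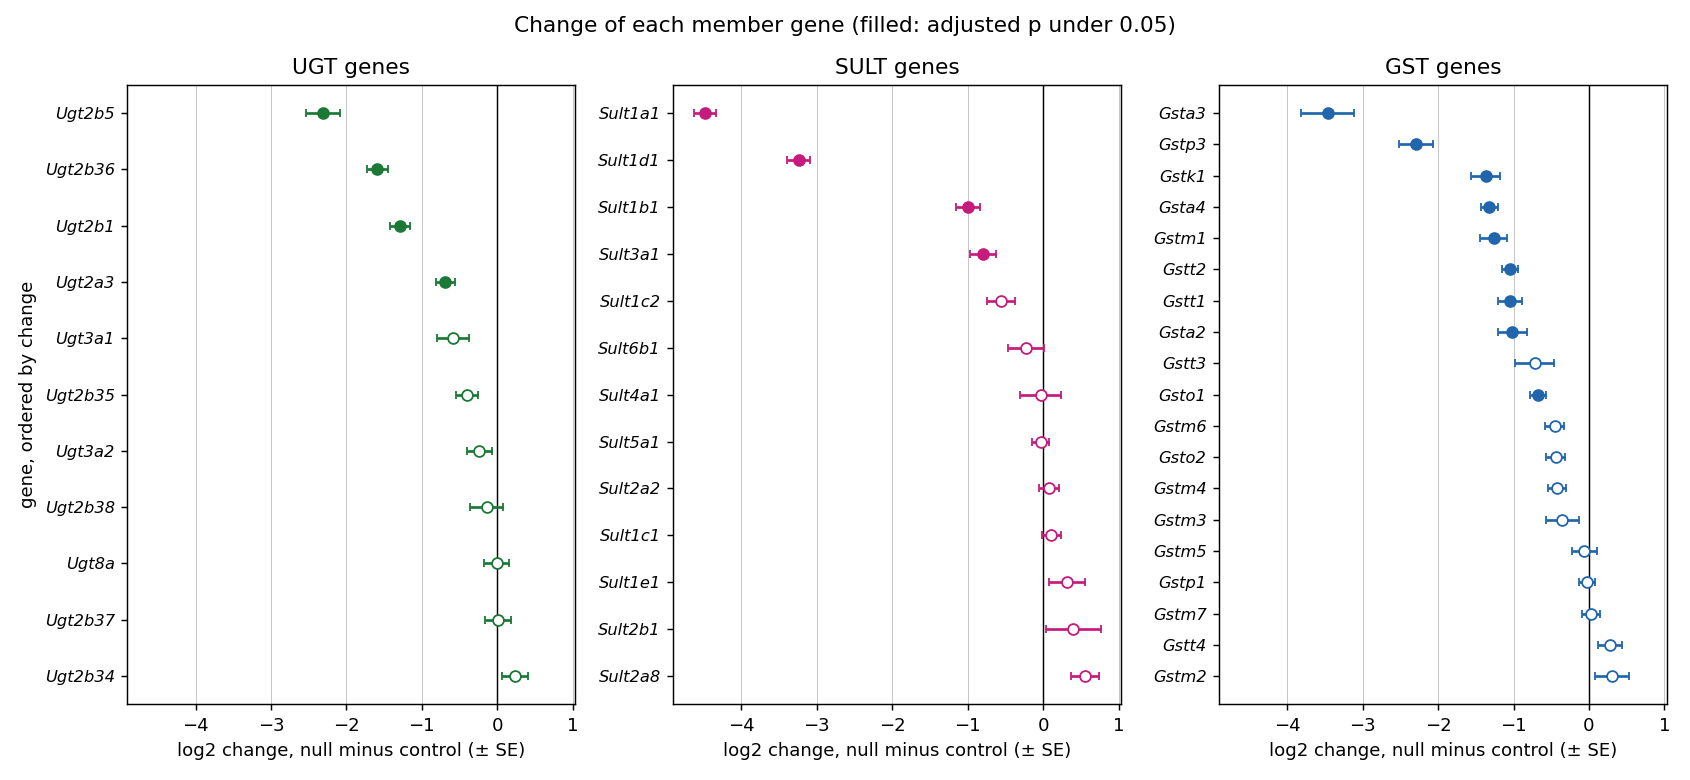
Log2 change (null minus control) of each of the 43 member genes with its standard error, by family, from 3 null and 3 control arrays. Filled points passed an adjusted p of 0.05, and all 17 of them lie below 0.

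In the SULT family, Sult1a1 fell below the array medians and Sult1d1 almost to the bottom of the arrays' range, while most other members were dim in both groups. Sult1a1, the phenol sulfotransferase, read 2084, 2204 and 1785 in controls against 73.8, 45.2 and 62.0 in nulls. The log2 change of -4.48 (standard error 0.15, adjusted p = 5.86e-07) was the largest of any member. Sult1d1, which sulfonates catecholamines, read 372, 469 and 321 in controls against 9.17, 14.2 and 12.6 in nulls in probe set 1448973_at (log2 change -3.24, standard error 0.15, adjusted p = 3.39e-06). In its other probe set, 1418138_at, the controls read 255, 302 and 220.1 and the nulls -10.8, -3.80 and -2.39, all listed below 0. Those nulls were set to 0 before the test, so its adjusted p of 2.12e-06 holds no spread between null livers. With a pseudocount of 1 or 100 in place of 32, the log2 change of Sult1a1 was -5.07 or -3.73 and that of Sult1d1 (1448973_at) was -4.91 or -2.11.

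Sult1b1, which sulfonates thyroid hormones, read 34.1, 48.3 and 56.1 in controls against 7.23, 6.34 and 7.50 in nulls, below the array medians throughout (log2 change -0.99, standard error 0.16, adjusted p = 0.00622). Sult3a1 was as dim, at 35.1, 58.8 and 37.1 in controls against 8.97, 8.71 and 15.9 in nulls (log2 change -0.80, adjusted p = 0.0267). Its call was lost without Control_1192, Control_1193 or Null_1191 (adjusted p = 0.115, 0.0681 and 0.0943) and with embryo sex as a term (0.0717). In both genes the groups did not overlap.

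The SULT2A enzymes sulfonate bile acids and steroids such as dehydroepiandrosterone. Sult2a8 read 52.4, 78.9 and 42.3 in controls against 101, 77.9 and 120.2 in nulls, and it was the member with an unadjusted p under 0.05 in the higher direction (log2 change 0.56, adjusted p = 0.121). Null_1191 lay just under the highest control. Sult2a2 read 109, 93.3 and 131 in controls against 117, 115 and 122 in nulls (log2 change 0.08, 95% confidence interval -0.22 to 0.37), with the nulls inside the control range. Sult5a1 read 161, 139 and 162 in controls against 153, 153 and 144 in nulls (log2 change -0.03, 95% confidence interval -0.29 to 0.23).

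Sult2b1, which sulfonates cholesterol and pregnenolone, and Sult1e1, the estrogen sulfotransferase, differed between the null livers. Sult2b1 read 34.4, 36.7 and 20.9 in controls against 10.3, 91.9 and 74.6 in nulls, and Sult1e1 read 32.2, 11.7 and 15.2 in controls against 14.0, 39.7 and 45.9 in nulls. In both, Null_1191 and Null_1195 lay above the 3 controls and Null_61 did not. Neither was called with all arrays (adjusted p = 0.569 and 0.491). In the 4 arrays with 4-digit title numbers both were called higher, with log2 changes of 0.93 and 0.72 (adjusted p = 0.0161 and 0.0453). Null_61 against Control_8 gave -0.65 and -0.48. In those 4 arrays the nulls were read as female and the controls as male, so genotype and embryo sex cannot be told apart there. Null_61 was read as male and Control_8 as female. With embryo sex as a term over all arrays, 0 SULT probe sets were called higher. Each intensity of Sult2b1 and Sult1e1 lies below the median of its own array.

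Start windows of the SULT1 genes that fell, Sult1a1, Sult1d1 and Sult1b1, are shown because each held one of the hepatocyte factor motifs described for Ugt2a3. Capitals again mark a match in either orientation.
Sult1a1: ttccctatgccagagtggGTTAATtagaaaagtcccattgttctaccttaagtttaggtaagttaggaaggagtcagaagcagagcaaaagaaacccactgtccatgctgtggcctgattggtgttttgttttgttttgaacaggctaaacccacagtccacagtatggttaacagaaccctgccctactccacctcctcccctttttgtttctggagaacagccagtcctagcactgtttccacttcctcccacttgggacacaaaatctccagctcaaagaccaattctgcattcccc
Sult1d1: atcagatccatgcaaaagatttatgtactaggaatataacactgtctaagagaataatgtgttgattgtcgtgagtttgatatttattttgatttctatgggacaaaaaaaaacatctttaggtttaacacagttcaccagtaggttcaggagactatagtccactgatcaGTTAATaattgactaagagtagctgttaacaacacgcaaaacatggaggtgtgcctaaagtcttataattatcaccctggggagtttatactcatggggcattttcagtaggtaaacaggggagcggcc
Sult1b1: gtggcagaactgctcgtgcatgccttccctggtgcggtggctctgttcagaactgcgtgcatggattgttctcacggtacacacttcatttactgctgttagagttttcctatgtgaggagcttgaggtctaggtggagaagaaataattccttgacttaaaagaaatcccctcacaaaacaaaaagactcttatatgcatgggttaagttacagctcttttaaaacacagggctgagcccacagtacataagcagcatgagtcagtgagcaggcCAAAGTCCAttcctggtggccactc
The Sult1a1 window (chr7:126676369-126676668, minus strand) has GTTAAT at 232 bases before the start, and the Sult1d1 window (chr5:87568957-87569256, minus strand) has it at 79 bases before. The Sult1b1 window (chr5:87536173-87536472, minus strand), the first of 2 for that gene, has the HNF4 core at 25 bases after the start. These are matches of letters, not measured binding.

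Over all members, 38 of 43 genes had a window, 48 windows in all, and Gsta4, Gstt2, Sult2a2, Sult4a1 and Ugt3a2 had none. CAAAGTCCA was found in 1 of 48 windows (2.08%), and in 0.475% of all 32851 windows of the table. GTTAAT was found in 4 of 19 windows of genes with a fallen probe set, 1 of 29 windows of the other members, and 7.1% of all windows. The antioxidant response element TGACNNNGC, a site of NRF2, was found in 2 of 19 and 1 of 29 windows, against 12.4% of all. GCGTG, the core bound by the AHR receptor, was found in 6 of 19 and 5 of 29, against 32.4% of all. The direct repeat known as DR1, bound by nuclear receptors including HNF4 alpha, was searched in its consensus form and found in 0 of the 48 windows and 0.0396% of all.

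GST genes fell in 9 of 19 cases, spread over the alpha, mu, pi, theta, kappa and omega classes, and the alpha class fell in all 3 measured members. Gsta3, which detoxifies the epoxide of aflatoxin in mice, had the widest gap. Its probe set 1423437_at read 2577, 2393 and 2678 in controls against 90.6, 237 and 353 in nulls, an 11.1-fold fall (log2 change -3.47, standard error 0.35, adjusted p = 0.000357). Its second probe set, 1423436_at, read 2897, 2290.1 and 2479 in controls against 136, 154 and 178 in nulls, a 13.7-fold fall with closer nulls (log2 change -3.78, adjusted p = 8.89e-07). In both probe sets Null_61 was lowest and Null_1195 highest among the nulls, far under every control. The Gsta3 window (chr1:21240335-21240634, plus strand) is shown because it held both the HNF1 half-site, in capitals on the opposite strand at 149 bases before the start, and an antioxidant response element at 121 bases before it.
Gsta3: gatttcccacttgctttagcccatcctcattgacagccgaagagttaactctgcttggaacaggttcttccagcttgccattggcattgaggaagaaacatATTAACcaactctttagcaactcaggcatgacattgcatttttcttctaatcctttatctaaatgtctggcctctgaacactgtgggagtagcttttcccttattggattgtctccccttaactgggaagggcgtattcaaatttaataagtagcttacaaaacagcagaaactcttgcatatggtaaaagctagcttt
Gsta4, the transferase for the lipid peroxidation product 4-hydroxynonenal, read 417, 424 and 401 in controls against 135, 145 and 160.3 in nulls, a 2.50-fold fall (log2 change -1.32, standard error 0.11, adjusted p = 0.000143). Gsta2 was dim, at 88.5, 76.6 and 70.3 in controls against 34.4, 27.0 and 9.01 in nulls (log2 change -1.02, adjusted p = 0.0133), and its call was lost without Control_8 (adjusted p = 0.0582) or Control_1192 (0.0636). A further probe set shared by Gsta1, Gsta2 and Gm3776 was not called and is not a member.

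The mu class, a run of 7 neighbouring genes, changed in part. Gstm1 fell in 3 of its 4 probe sets. Its stand-in 1448330_at read 1744, 1715 and 1764 in controls against 554, 667 and 948 in nulls, a 2.40-fold fall (log2 change -1.26, standard error 0.18, adjusted p = 0.00257). The controls lay close together while the nulls spread widely, with Null_1195 highest. Probe set 1416416_x_at read 1704, 1263 and 1406 in controls against 739.8, 492 and 660.0 in nulls, a 2.26-fold fall (adjusted p = 0.00326). Probe set 1425627_x_at read 990.2, 732 and 781 in controls against 398, 309.7 and 407 in nulls, a 2.14-fold fall (adjusted p = 0.00277). In these the nulls kept another order, with Null_1191 lowest. The fourth, 1425626_at, was not called, although its nulls also lay below its controls, at 351, 262 and 289.5 in controls against 233, 198 and 251 in nulls (log2 change -0.36, adjusted p = 0.196).

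Gstm7 was read differently by its 2 probe sets. Probe set 1419072_at read 625, 416 and 466 in controls against 164, 147 and 149 in nulls, a 2.85-fold fall (log2 change -1.51, adjusted p = 0.000435), with every null below every control. Probe set 1425946_at read 284, 264 and 316 in controls against 293, 313 and 271 in nulls (log2 change 0.02, 95% confidence interval -0.25 to 0.29), with overlapping groups. This probe set has the higher mean log2 value and stands for the gene, so Gstm7 is not among the 9 GST genes above. With any called probe set as the criterion the count is 10 GST genes and 18 members. Which part of the transcripts each probe set reads is not stated by the labels or the files.

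Gstm5 read 1201, 1307 and 1109.5 in controls against 1322, 1309 and 878 in nulls (log2 change -0.06, 95% confidence interval -0.44 to 0.31), with Null_61 and Null_1191 just above the controls and Null_1195 below them. Gstm3 read 1034, 1184 and 1399.6 in controls against 651, 1028 and 1202 in nulls in 1427474_s_at (log2 change -0.35, adjusted p = 0.390), with Null_1191 and Null_1195 at or near the control range. Its other probe set, 1427473_at, was dim, at 18.8, 49.9 and 44.1 in controls against 44.4, 13.9 and 36.5 in nulls (log2 change -0.13, adjusted p = 0.802). Gstm2 read 230.4, 282 and 399.9 in controls against 325, 318 and 507 in nulls (log2 change 0.31, adjusted p = 0.477), with overlapping groups. Gstm4 read 129, 113 and 118 in controls against 91.6, 71.2 and 81.9 in nulls, below every control in every null, but was not called (log2 change -0.42, adjusted p = 0.0831). It was called without Null_61 (adjusted p = 0.0449), with array weights (0.0294) and with the title number run, short or 4-digit, as a block (0.0368). Genes of this class are similar in sequence, so the split of signal between their probe sets is uncertain.

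The pi class detoxifies carcinogens and lipid peroxidation products, and its 2 measured genes, close neighbours, read differently. Gstp1 read 4903, 4357 and 4956 in controls against 5106, 4161 and 4680.0 in nulls, and the groups overlapped (log2 change -0.03, 95% confidence interval -0.27 to 0.21, adjusted p = 0.901). Gstp3 read 889, 993 and 1108 in controls against 158, 126 and 270.0 in nulls, a 4.91-fold fall (log2 change -2.30, standard error 0.22, adjusted p = 0.000302). Its nulls lay far below all controls, with Null_1195 highest. The start windows of Gstp1 and Gstp3 matched at 51.2% of aligned columns, beside 44.3% to 50.8% between SULT1 windows. Gstp2, between them in the reference table, has no singly named probe set here.

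In the theta class, whose enzymes act on small halogenated compounds, Gstt1 read 1594, 1075 and 1473 in controls against 669.8, 577 and 693 in nulls, a 2.06-fold fall (log2 change -1.04, standard error 0.16, adjusted p = 0.00434). Gstt2 read 697, 665 and 648 in controls against 304, 293 and 329 in nulls, also a 2.06-fold fall (log2 change -1.04, standard error 0.11, adjusted p = 0.000449). Both were separated between groups, and the nulls of Gstt2 lay close together. Gstk1, a transferase of mitochondria and peroxisomes, read 503, 318 and 402 in controls against 115, 123 and 177 in nulls, a 2.58-fold fall (log2 change -1.37, adjusted p = 0.00283).

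Omega class enzymes reduce dehydroascorbate and methylated arsenic species. Gsto1 fell in both probe sets: 1456036_x_at read 797, 834 and 875 in controls against 483, 556 and 499 in nulls, a 1.59-fold fall (log2 change -0.67, adjusted p = 0.00633). The other, 1416531_at, read 725, 629 and 710.3 in controls against 423, 325 and 237 in nulls, a 2.04-fold fall (log2 change -1.03, adjusted p = 0.0106), a call lost without Control_1193 (adjusted p = 0.0525). Gsto2 read 131, 124 and 157 in controls against 92.3, 103 and 82.7 in nulls, with no overlap and no call (log2 change -0.44, adjusted p = 0.0864). With the title number run as a block its adjusted p was 0.0495.

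A further 12 members had no called probe set and group means at or below 99.5: Gstm6, Gstt3, Gstt4, Sult1c1, Sult1c2, Sult1e1, Sult2b1, Sult4a1, Sult6b1, Ugt2b37, Ugt2b38 and Ugt3a2. Their stand-in values ran from 3.74 to 110.4 (Sult1c2 in Control_1192), their log2 changes from -0.72 to 0.40 and their adjusted p values from 0.0659 to 0.979. Gstm6 was called lower with array weights (adjusted p = 0.0291), with the title number run as a block (0.0280) and without Null_61 (0.0436), and Sult1c2 with that block (0.0435).

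**Figure D3:**
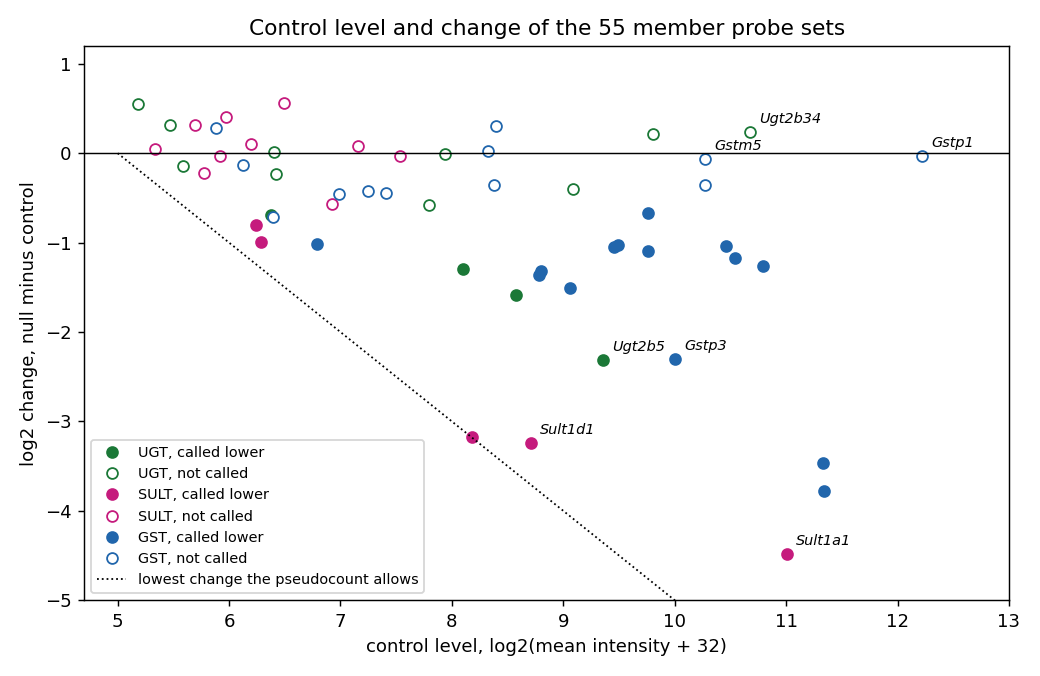
Control level, as log2(mean intensity + 32), and log2 change of the 55 member probe sets, with called probe sets filled. The dotted line is the lowest change that the pseudocount allows at each level. One Sult1d1 probe set, 1418138_at, lies on it, and Gstp1 and Ugt2b34 lie near 0. Levels of different probe sets are not comparable as amounts of RNA.

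Within runs of neighbouring family genes, some passed the test and others did not. The longest run in the reference table holds 13 genes, with 8 measured UGT2 genes followed by 3 measured SULT1 genes. Along it, Ugt2b1, Ugt2b36, Ugt2b5, Ugt2a3, Sult1b1 and Sult1d1 fell, and Ugt2b34, Ugt2b35, Ugt2b37, Ugt2b38 and Sult1e1 between or beside them were not called. Of the uncalled genes, Ugt2b37, Ugt2b38 and Sult1e1 lay below the array medians throughout, where a fall is hard to see. The called Ugt2a3 and Sult1b1 were as dim. In Ugt2b35 every null lay below every control. Of the 7 GSTM genes in a row only Gstm1 was called by its stand-in. Among 4 GSTT genes, Gstt1 and Gstt2 fell, with Gstt3 and Gstt4, both below the array medians, beside them.

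**Figure D4:**
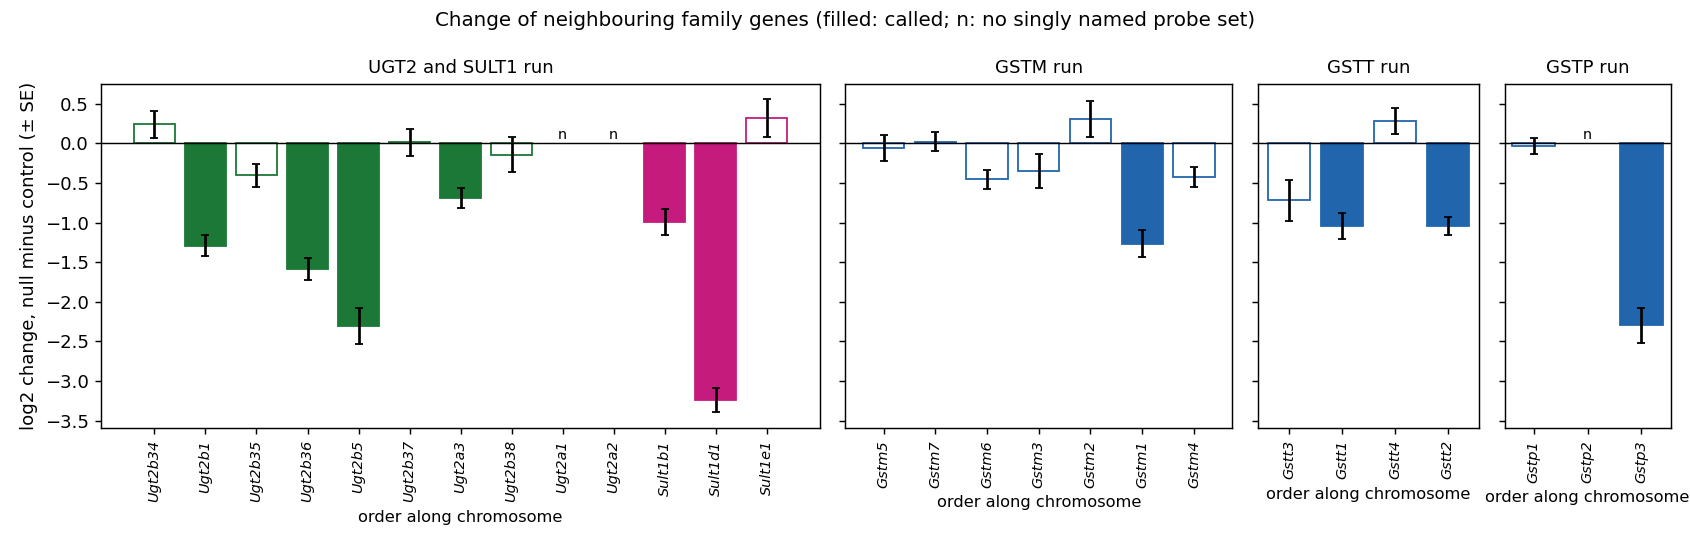
Log2 change (null minus control, with standard error) of family genes in 4 runs of neighbours, in their order along the chromosome, green for UGT, pink for SULT and blue for GST. Filled bars were called, and n marks a gene with no singly named probe set. Falls of -1.29, -1.59 and -2.31 in Ugt2b1, Ugt2b36 and Ugt2b5 stand beside 0.24 in Ugt2b34.

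The null arrays were not equal in the signal they kept. Over the 17 called genes, the median difference from the control mean reached -1.45 for Null_61, -1.34 for Null_1191 and -1.21 for Null_1195 on the log2 scale. Over all genes these medians were -0.02, 0.01 and 0.02, in the same order. Null_61 is also the null with a short title number and the null read as male. Differences of liver, array, embryo sex and number run cannot be told apart. Null_1195 was the highest of the nulls in 10 of these genes, Null_61 in 4 and Null_1191 in 3. The lowest was Null_61 in 8, Null_1191 in 6 and Null_1195 in 3. In all 23 called member probe sets every null lay below every control. Each was therefore bound to be lower in Null_61 against Control_8 and in the nulls of the 4 other arrays, which is no separate check. Hnf4a signal followed another order, given here as percent of the control mean for Null_61, Null_1191 and Null_1195. It was 68.7%, 45.7% and 72.3% in 1421983_s_at and 64.2%, 56.5% and 100.4% in 1427001_s_at, with Null_1195 highest. In 1427000_at it was 80.1%, 52.9% and 74.8% and in 1450447_at 80.1%, 57.4% and 63.2%, with Null_61 highest. Null_1191 was lowest in each of these probe sets. Whether the retained Hnf4a signal bears on the members was not tested.

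**Figure D5:**
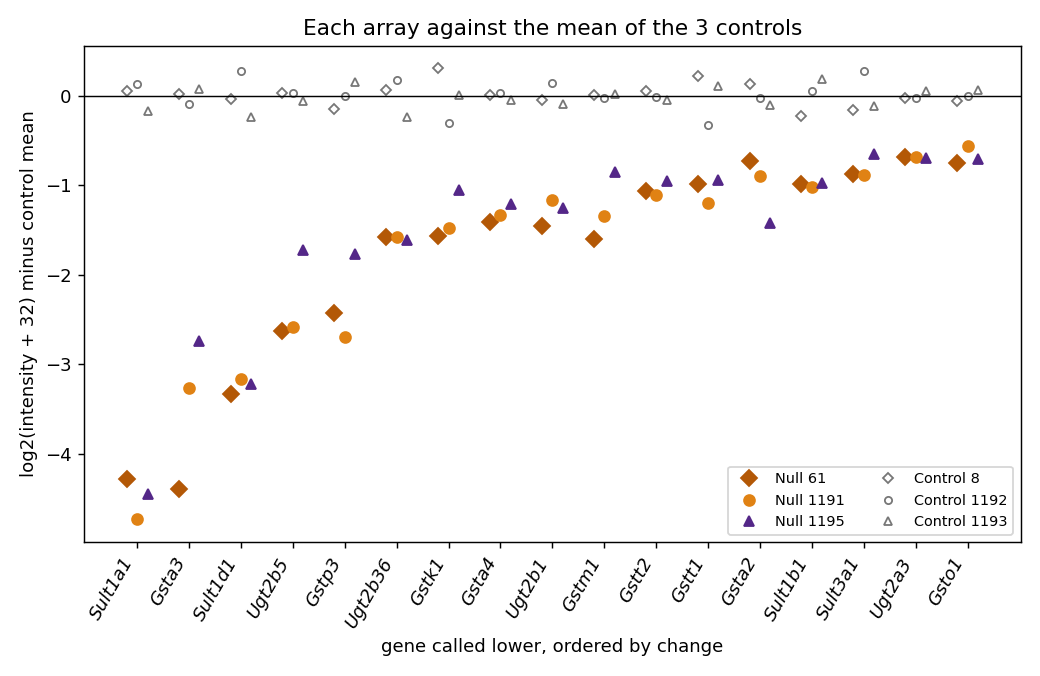
Difference of each array from the mean of the 3 controls, as log2(intensity + 32), for the 17 called genes in order of their change. Filled points are nulls and open grey points controls. Null_1195 lies above the other nulls in Gsta3, Ugt2b5 and Gstp3, and below them in Gsta2.

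Markers of other cells of the liver also moved, where 7.85% of all genes were called lower and 1.56% higher. Of 8 macrophage genes, 3 were higher (sum of 3435 to 3801 in the controls and 4528 to 6650 in the nulls). In the megakaryocyte and mast cell list 3 of 7 were lower (sum of 3847 to 4741 and 2771 to 3134), and the mast cell and basophil genes Cpa3 and Mcpt8 stayed below the array medians on all arrays. Endothelial genes were lower in 3 of 6 (sum of 1705 to 1939 and 1179 to 1387). Of 4 gut epithelial genes 1 was lower (sum of 437 to 480.4 and 316 to 379.8). Krt19, a biliary marker, also stayed below the array medians, and no other listed marker did. Among 5 erythroid, 6 neutrophil, 7 mesenchymal and 4 biliary genes 0 were called by limma, with sums of 15886 to 16473 against 18604 to 19043 for the erythroid list, 25786 to 29110 against 23155 to 29528 for the neutrophil list, 3709 to 4675 against 4421 to 6455 for the mesenchymal list, and 640.2 to 722 against 619 to 775 for the biliary list. At an unadjusted p under 0.05, in either direction, these 4 lists held 3, 0, 3 and 1 genes in the same order. Over all genes 15.2% were lower and 9.1% higher at that level. The part of these cells in the members' falls was not tested.

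In the supply of the donor for glucuronidation 2 of 4 genes fell. Over all genes 7.85% were called lower and 1.56% higher, and these shares stand beside the counts of all lists below. Ugp2, which makes UDP-glucose, went from 1434, 1074 and 1129.7 in controls to 555, 385 and 353 in nulls (log2 change -1.44, adjusted p = 0.00149). Slc35d1, which carries UDP-glucuronic acid into the endoplasmic reticulum, went from 289.9, 282 and 272 in controls to 99.8, 87.1 and 98.2 in nulls (log2 change -1.30, adjusted p = 0.000144). Of 5 Ugp2 probe sets 4 fell, and a dim second probe set of Slc35d1 was not called. The median log2 change of that list was -0.78. Ugdh, which makes UDP-glucuronic acid, and Gusb, which cleaves glucuronides, had log2 changes of -0.25 and 0.33 and were not called.

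For sulfonation, 1 of 6 measured genes fell, beside 7.85% of all genes. It was the sulfate transporter Slc26a1 (177, 154 and 159 in controls against 95.6, 92.2 and 93.5 in nulls, log2 change -0.63, adjusted p = 0.0102). The PAPS synthases Papss1 and Papss2 had log2 changes of 0.04 and 0.01, and Null_1195 stood out in Papss2, at 985 against 530 and 513 in the other nulls. The list's median was 0.00. In the glutathione list 0 of 7 measured genes were called by limma, and 1 had an unadjusted p under 0.05. At that level 15.2% of all genes were lower and 9.1% higher. The median was -0.20, and Gclc and Gclm, the subunits of the first enzyme of glutathione synthesis, had log2 changes of 0.06 and -0.29.

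In the list of membrane-bound, sigma class and related glutathione transferases outside the GST naming rule, 2 of 5 genes fell, and its median log2 change was -0.16. Mgst1, the microsomal enzyme, went from 5613, 5378 and 5557 in controls to 1258, 1714 and 2097 in nulls, a 3.29-fold fall (adjusted p = 0.000279), and Mgst2 from 256, 216 and 258 in controls to 112, 130.4 and 134 in nulls, a 1.75-fold fall (adjusted p = 0.00496). A dim second probe set of Mgst1 was not called. Mgst3, the cytosolic sigma class enzyme Hpgds, and Gstcd were not called.

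Of 9 measured regulators of conjugating enzymes 3 fell by their stand-in probe sets. Nr1i2, the pregnane X receptor, went from 196, 222 and 322 in controls to 40.2, 58.1 and 46.7 in nulls (log2 change -1.77, adjusted p = 0.000397), Nr1h4, the bile acid receptor FXR, from 274, 393 and 388 in controls to 71.7, 131 and 118 in nulls (log2 change -1.48, adjusted p = 0.00249), and Ahr, the aryl hydrocarbon receptor, from 321, 315 and 343 in controls to 196, 183 and 206 in nulls (1.58-fold, adjusted p = 0.00791). A second, dim probe set of Ahr was not called (log2 change 0.02). Ppara, a receptor for fatty acids, was split: its stand-in had a log2 change of -0.18 (adjusted p = 0.392), while its other probe sets fell, with log2 changes of -3.04 and -2.88 (adjusted p = 8.15e-06 and 0.00631). Rxra, another listed regulator, read 575, 577 and 495 in controls against 400, 179 and 290 in nulls. It was just short of the call (log2 change -0.91, adjusted p = 0.0533), and 0 of its 3 probe sets were called. Nfe2l2, which encodes NRF2, had a log2 change of -0.07 and Nr1i3, the constitutive androstane receptor, -0.20, and neither was called. The list's median was -0.20.

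Among 9 transporters of conjugates 3 fell. Slco1b2, which takes organic anions up from blood, went from 973, 1062 and 1035 in controls to 14.0, 35.8 and 26.4 in nulls (log2 change -4.22, standard error 0.16, adjusted p = 9.03e-07). A further 2 of its 5 probe sets fell and 2 were not called. Abcc2, the export pump for conjugates into bile, went from 270.0, 492 and 523 in controls to 142, 133 and 141 in nulls, a 2.60-fold fall (adjusted p = 0.00539). Abcc6 fell 1.59-fold (adjusted p = 0.0228), a call lost without Control_1192, Control_1193, Null_1191 or Null_1195 (adjusted p = 0.0798, 0.0906, 0.0504 and 0.0790) and with embryo sex as a term (0.0678). Abcc3, which exports conjugates back into blood, had a log2 change of 0.43 and was not called (adjusted p = 0.176). The list's median was 0.01, beside 0.01 over all genes.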

How the data were processed

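Per the labels' protocols, RNA from RNeasy columns was labelled with biotin by the Affymetrix procedure, and each sample is 1 array. The deposited values are linear probe-set intensities. How the authors summarised probes, subtracted background and scaled arrays, and with which software, is not stated in the labels or file headers. Values below 0 (0.908% to 1.34% of each array) show that some signal had been subtracted.

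Negative values became 0 and the test used log2(intensity + 32). Array medians differed by 0.0877 at most, under a tolerance of 0.2, so no scaling was added. After leaving out 64 control probe sets, 45037 were fitted with limma 3.58.1 in R 4.3.3 (lmFit, eBayes with an intensity trend, two-sided, no covariate, Benjamini-Hochberg over all). The script was tested on simulated data. The platform annotation gave 1 symbol to 34945 probe sets, several to 932 and none to 9160. A gene stands by its probe set with the highest mean. Every member gene with a called probe set, or a group mean above 99.5 (the highest array median), is named with the values of all its probe sets, and up to 3 called genes of each pathway list. Sult2b1, Sult1e1 and other uncalled genes of the lists were added after their values were seen. All 43 genes matched RefSeq (GRCm38.p6) by Entrez number. That table served for names and neighbour order, with runs of neighbours joined over at most 5 genes. Promoter windows are RefSeq's and were aligned with Biopython 1.88.

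The members, lists and tests were chosen with earlier results of these data known. The precision is limited by the number of arrays. An exact two-sided permutation test of 3 against 3 cannot go below p = 0.1, so none was run. Alternatives were quantile normalization, centred medians, pseudocounts of 1 and 100, a filter to probe sets above the median level, a fit without the trend, array weights, the title number run as a block, the 4 arrays with 4-digit numbers, embryo sex read from Xist and Y-linked probe sets, a change of at least 2-fold, and each array left out in turn.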

Additional observations from a re-analysis of the deposited data

How the results depend on the processing

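The groups share no replicate number, so no pairing by number exists; the title number run (short or 4-digit) was fitted as a block instead. Of the 23 called member probe sets, 19 stayed called in each of the 16 refits that kept them, and 4 (Ugt2a3, Sult3a1, Gsta2 and Gsto1 1416531_at) lost the call in at least 1, with the values given above. No called member changed sign in any refit. Leaving out an array could not have changed a sign, since every null lay below every control in these probe sets. Counts for UGT (4 lower) and GST (14 lower) stayed within 1.5 times under all alternatives, and 0 were higher. SULT falls went from 5 to 2 with only probe sets above the median level over the 6 arrays, which removes the dim Sult1b1 and Sult3a1 and also Sult1d1 1418138_at, whose nulls pull its mean down, and to 3 at a change of at least 2-fold. SULT rises went from 0 to 2 in the 4 arrays with 4-digit title numbers (Sult2b1 and Sult1e1). With 1 array left out they ranged from 0 to 1, the 1 being Sult2b1 without Null_61. In the 4 arrays the nulls were read as female and the controls as male, so genotype and embryo sex cannot be told apart there. Without Null_61 every null left was read as female. The cause of these rises was not tested. With the title number run as a block, Gstm4, Gstm6, Gsto2 and Sult1c2 were also called lower, for 17 GST and 6 SULT probe sets. Low signal limits the precision of the 16 member genes whose group means are both at or below 99.5.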
